A study of Mus musculus with 11 samples.

Results

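Genes of astrocyte reactivity and homeostasis were followed across 4 genotypes, namely Gfap, Vim, Cd44, Cp, Timp1, S1pr3, Aqp4, Aldh1l1, Slc1a2 and Slc1a3. They were chosen by name, as 10 of the 22609 genes in the count table, and all 10 passed the minimum of 10 counts over all libraries. The study sequenced polyadenylated RNA in bulk from 11 libraries labelled cerebellar hemisphere to ask what the loss of Neurofascin 186, Ankyrin G or both from Purkinje cells does to the tissue. By the labels the groups were control (n = 3), NFKO (Pcp2-Cre;NfascFx/Fx, n = 3), AnkGKO (Pcp2-Cre;AnkGFx/Fx, n = 2) and DKO (Pcp2-Cre with both floxed genes, n = 3). The series text gives the control genotype as NfascFx/Fx;AnkGFx/Fx without Cre, in which case all 4 groups carried floxed alleles and the 3 mutant groups shared the transgene. Elsewhere the study writes the control genotype with Pcp2-Cre, or as single or double floxed alleles without Cre, so what the comparisons with control hold constant is not certain. Pcp2-Cre is described by the study as acting mainly in Purkinje cells, so astrocytes were not the cells targeted. The mice were untreated littermates of mixed sex and of mixed strain background, and their age is given as postnatal day 30 in one label and as postnatal day 32 in another. The labels number the samples of a group as biological replicates and do not say what each number stands for, so p-values measure the spread between these samples, which may in part be technical.

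Astrocytes take up glutamate and potassium released by neurons, exchange water at the vessel wall and supply metabolites. When neurons are injured they can become reactive, a state in which intermediate filaments, adhesion receptors, protease inhibitors and acute-phase proteins are made in larger amounts. In the cerebellum the specialised astrocytes around Purkinje cells are the Bergmann glia, which are rich in the glutamate transporter encoded by Slc1a3.

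Gene counts per library lay between 38890851 and 55822361, and levels are given as CPM, the counts scaled to a common library size, here with TMM factors. At these depths 3 counts, used here as a floor, equal 0.0546 to 0.0780 CPM, and the floor covers counting error only. The targeted gene Ank3, which encodes Ankyrin G, was at 353 to 375 CPM in control, 385 to 407 in NFKO, 156 and 200.1 in AnkGKO and 159.7 to 185 in DKO. Nfasc was at 661 to 718 CPM in control and 622 to 701 in NFKO, so whole-gene counts of Nfasc overlapped between these groups, and it was at 559 to 606 CPM in DKO. The tissue label was checked against 4 Purkinje cell and 4 granule cell genes. Summed over 4 genes, the granule cell markers (Gabra6, Cbln3, Neurod1 and Zic1) reached 428 CPM in control replicate 1 and 355 CPM in NFKO replicate 1, and lay between 29.8 and 66.6 CPM in the other 9 libraries. The Purkinje cell markers (Pcp2, Calb1, Car8 and Itpr1) summed to 895 and 999.95 CPM in the same pair of libraries and to 153 to 266 CPM elsewhere. By contrast, 12 Hox genes of caudal position, which are expressed in spinal cord and not in cerebellum, summed to 395 to 615 CPM in every library. The label cerebellar hemisphere is therefore used as the labels give it, while in 9 of 11 libraries its defining markers were low. Xist, the non-coding RNA of the inactive X chromosome that is expressed in female cells, was at 464, 598 and 0.428 CPM in control and 28.4, 459 and 469 in DKO, but at 0.344 to 1.39 in all NFKO and AnkGKO libraries. Sex was thus unevenly spread over the genotypes, and each comparison between NFKO or AnkGKO and control or DKO is confounded with it to a large part. Values with Xist as a covariate are therefore given for some results, beside them or in the section on processing. In bulk RNA fewer astrocytes and less RNA per astrocyte cannot be told apart.

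The promoters of 4 members are shown first, 250 bases before the RefSeq start of each, because Gfap, Vim and S1pr3 deviated together within genotypes and Slc1a3 varied apart from them. The sequences come from the RefSeq promoter table, built on GRCm38.p6, and each was found unchanged at 1 place of its GRCm39 chromosome. Gfap lies at chr11:102788027-102788276 on the minus strand, Vim at chr2:13578872-13579121 on the plus strand, S1pr3 at chr13:51562404-51562653 on the plus strand and Slc1a3 at chr15:8740292-8740541 on the minus strand. Capitals mark matches on either strand to 4 short motifs. The STAT motif was searched as TTCNNNGAA and the AP-1 motif as TGANTCA. The letters of the TATA box were TATAAA, and the CCAAT box was searched under its own name.
Gfap: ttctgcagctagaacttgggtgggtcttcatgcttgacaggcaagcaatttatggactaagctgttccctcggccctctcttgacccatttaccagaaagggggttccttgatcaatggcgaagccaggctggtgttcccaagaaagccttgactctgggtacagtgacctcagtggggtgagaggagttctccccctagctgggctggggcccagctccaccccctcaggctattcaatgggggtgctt
Vim: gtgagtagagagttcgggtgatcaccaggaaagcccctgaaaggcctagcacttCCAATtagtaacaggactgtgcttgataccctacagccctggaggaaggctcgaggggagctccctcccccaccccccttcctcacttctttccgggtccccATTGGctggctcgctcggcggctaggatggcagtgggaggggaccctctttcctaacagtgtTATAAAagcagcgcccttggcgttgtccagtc
S1pr3: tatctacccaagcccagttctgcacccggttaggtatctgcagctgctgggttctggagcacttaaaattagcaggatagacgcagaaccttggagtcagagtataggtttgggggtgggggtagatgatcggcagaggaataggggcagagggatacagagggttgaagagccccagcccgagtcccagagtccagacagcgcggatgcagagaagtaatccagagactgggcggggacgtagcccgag
Slc1a3: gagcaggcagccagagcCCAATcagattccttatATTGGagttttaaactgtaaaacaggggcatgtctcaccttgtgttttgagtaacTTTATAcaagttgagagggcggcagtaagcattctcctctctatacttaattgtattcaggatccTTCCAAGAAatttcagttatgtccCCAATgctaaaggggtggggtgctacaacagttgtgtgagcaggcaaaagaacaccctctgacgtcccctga
The Vim promoter held a TATA box 32 to 27 bases before the start and 2 CCAAT boxes, 1 of them on the opposite strand, while those of Gfap and S1pr3 held none of the 4 motifs. The Slc1a3 promoter held the only STAT match among the 9 members found in the table, 96 to 88 bases before the start, with 3 CCAAT boxes on either strand and a TATA match on the opposite strand. No matches overlapped each other in these 4 windows. Of 32851 promoters of this length in the table, 7.02% held the STAT motif, 6.75% the AP-1 motif, 12.4% the TATA box and 33.8% the CCAAT box. A match describes letters in this window and is no measure of binding.

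Levels between genes were compared per length, as CPM per kilobase of annotated exon (GENCODE vM39 on GRCm39), averaged over the 11 libraries. On this scale Gfap stood first with 365 CPM per kilobase, followed by Slc1a2 with 196, Aqp4 with 111.2, Vim with 20.8, Slc1a3 with 13.9 and Aldh1l1 with 10.8. Below them came Cd44 with 3.06, Cp with 2.84, S1pr3 with 2.24 and Timp1 with 0.526 CPM per kilobase. Gfap, Slc1a2 and Aqp4 stood above the rest by more than the spread between libraries. Slc1a3 did not differ from Vim or Aldh1l1 beyond that spread, while Vim stood above Aldh1l1 in every library. Cd44, Cp and S1pr3 did not differ from one another beyond it, while Aldh1l1 stood above Cd44 and S1pr3 above Timp1. Cp alone ranged over 4.52-fold between libraries. With the length of the canonical transcript in place of all exons, Slc1a3 moved ahead of Vim (48.4 against 45.1 CPM per kilobase) and Cp ahead of Cd44 (7.65 against 3.67), and the rest kept their order. Every member was expressed above the floor in each library, including Timp1, whose lowest value was 0.546 CPM.

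**Figure D1:**
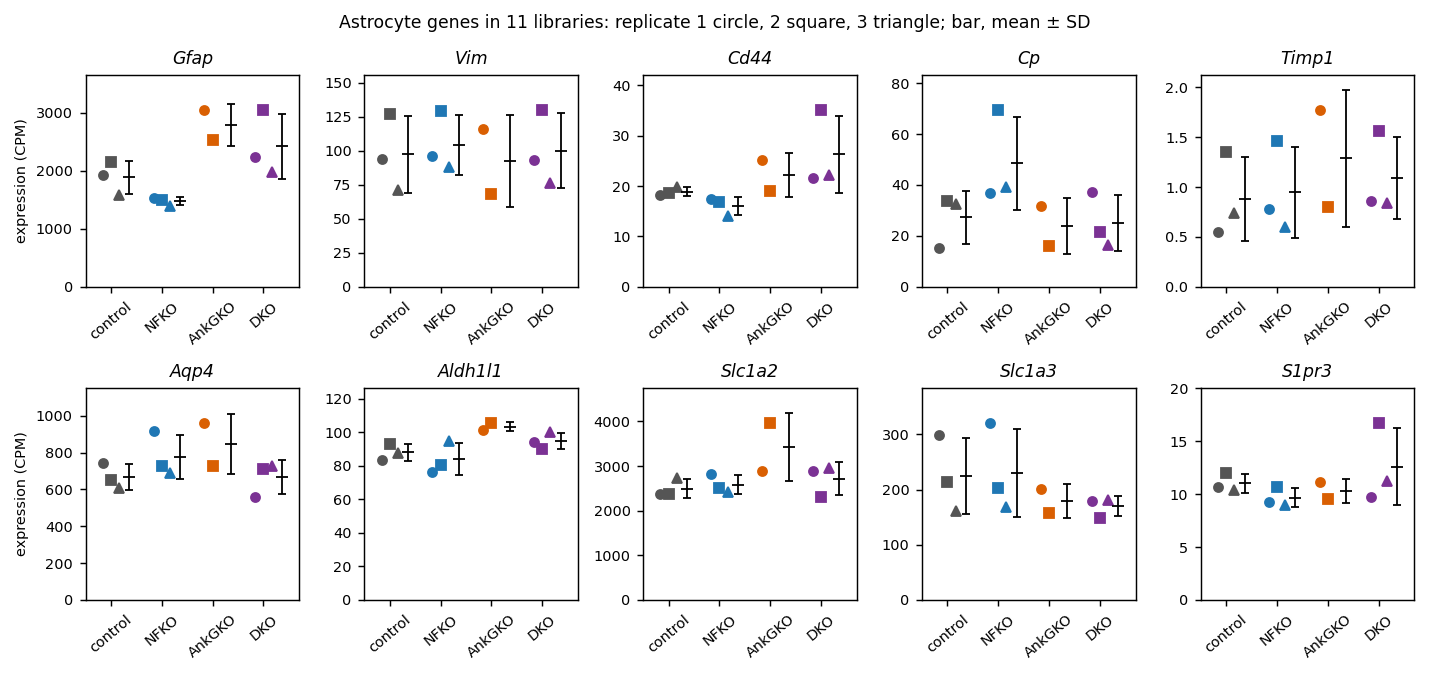
Expression of the 10 genes (CPM, vertical axes from 0) in each library of the 4 genotypes, with circles, squares and triangles for replicates 1, 2 and 3 and bars for the mean and SD of each group. Gfap was lower in NFKO (1398 to 1537 CPM) than in every other library, while Vim and Timp1 spread as widely inside a genotype as between genotypes.

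Across all 7 comparisons, none of the 10 genes passed the call used here, an adjusted p under 0.05 in edgeR's quasi-likelihood test with a log2 fold change of 0.6 or more in either direction. At an unadjusted p under 0.05, 1 member was lower in NFKO than in control, 3 were higher in AnkGKO and 2 were higher in DKO. In NFKO against control, edgeR called 0.365% of all 17557 genes tested, 7.69% had an unadjusted p under 0.05, and in 13.9% the libraries of the groups did not overlap. In AnkGKO against control the shares were 0.165%, 5.39% and 24%, and in DKO against control 0.0228%, 7.77% and 14.4%. DESeq2, run as the second tool, called no member in these 3 comparisons. The median log2 fold change of the 10 members was 0.045 in NFKO, 0.23 in AnkGKO and 0.12 in DKO, against -0.0050, -0.0050 and -0.00062 over all genes tested. Without AnkGKO replicate 1 the AnkGKO median was -0.061, and with 4 meningeal fibroblast genes as a covariate the NFKO median was -0.19. The smallest adjusted p of any member in any comparison belonged to Gfap, which lay below control in NFKO and above it in AnkGKO.

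Gfap encodes the main intermediate filament of astrocytes and is the usual marker of reactivity. It lies on chromosome 11 from 102778159 to 102791738 on the minus strand, with no other annotated gene in its span. It was at 1922, 2151 and 1587 CPM in control, 1537, 1495 and 1398 in NFKO, 3054 and 2532 in AnkGKO, and 2238, 3048 and 1982 in DKO. All 3 NFKO libraries lay below every control library, both AnkGKO libraries lay above every control library, and of the DKO libraries only replicate 3 fell inside the control range. Relative to control, Gfap had a log2 fold change of -0.35 in NFKO (SE 0.16, edgeR adjusted p = 0.643), 0.57 in AnkGKO (SE 0.17, edgeR adjusted p = 0.537) and 0.36 in DKO (SE 0.16, edgeR adjusted p = 0.629). None of these differences held after adjustment over all genes. Without the replicate 2 libraries of NFKO and DKO the DKO value of Gfap was 0.16. With DESeq2 the AnkGKO difference had an adjusted p of 0.0481 at a log2 fold change of 0.57, under the fold threshold. Same-numbered libraries of control and NFKO were taken as pairs, which the labels do not state, and Gfap was lower in NFKO in 3 of 3 pairs. In a paired fit of those 6 libraries alone, added after seeing the data, the log2 fold change was -0.34 (edgeR adjusted p = 0.0327), again under the fold threshold. With Xist as a covariate the log2 fold change of Gfap was -0.12 in NFKO (edgeR adjusted p = 0.926), 0.81 in AnkGKO (edgeR adjusted p = 0.395) and 0.31 in DKO (edgeR adjusted p = 0.554). In the 1 control library with little Xist, replicate 3, Gfap was at 1587 CPM, against 1398 to 1537 CPM in NFKO.

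The mutant genotypes were then set against each other. Gfap was higher in DKO than in NFKO by 0.71 on the log2 scale (SE 0.16, 95% interval 0.36 to 1.06, edgeR adjusted p = 0.0776), with no overlap of the libraries, 3 of 3 above. DESeq2 gave the same difference an adjusted p of 0.00012 and called it. With Xist as a covariate it was 0.43 (edgeR adjusted p = 0.376), and without the replicate 2 libraries of NFKO and DKO 0.53 (edgeR adjusted p = 0.157). AnkGKO was compared with NFKO after the values had been seen, and Gfap was higher by 0.92 (SE 0.17, 95% interval 0.53 to 1.30, edgeR adjusted p = 0.0563), again without overlap. DESeq2 called this difference too (adjusted p = 4.71e-06). No library of these groups was high in Xist, and with Xist as a covariate the difference was 0.93 (edgeR adjusted p = 0.0317). Between DKO and AnkGKO the difference was -0.21 (95% interval -0.59 to 0.18), with overlapping libraries. The interaction of the knockouts, the part of the DKO effect not given by the sum of the single effects, was 0.15 for Gfap (95% interval -0.37 to 0.67, edgeR adjusted p = 0.889). The order of the genotype means was NFKO, control, DKO and AnkGKO, in which DKO overlapped both of its neighbours. These comparisons share libraries, so their values are given side by side and are not independent of each other.

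In these comparisons edgeR called 0.615% of all genes in DKO against NFKO, 0.171% in DKO against AnkGKO, 0.404% in AnkGKO against NFKO and 0.53% in the interaction. At an unadjusted p under 0.05 the shares were 16.2%, 8.48%, 7.63% and 10.3% in the same order. Libraries did not overlap in 19.3% of genes in DKO against NFKO, 23.7% in DKO against AnkGKO and 23.9% in AnkGKO against NFKO. Of the 10 members, 3 had an unadjusted p under 0.05 in DKO against NFKO, namely Gfap, Cd44 and S1pr3, all higher in DKO. In AnkGKO against NFKO 4 had one, namely Gfap, Cd44, Aldh1l1 and Slc1a2, all higher in AnkGKO. In DKO against AnkGKO it was 1, Slc1a2, lower in DKO, and in the interaction 1, Aqp4. DESeq2 called Gfap and Cd44 in DKO against NFKO, Gfap in AnkGKO against NFKO, and no member in the other 2.

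**Figure D2:**
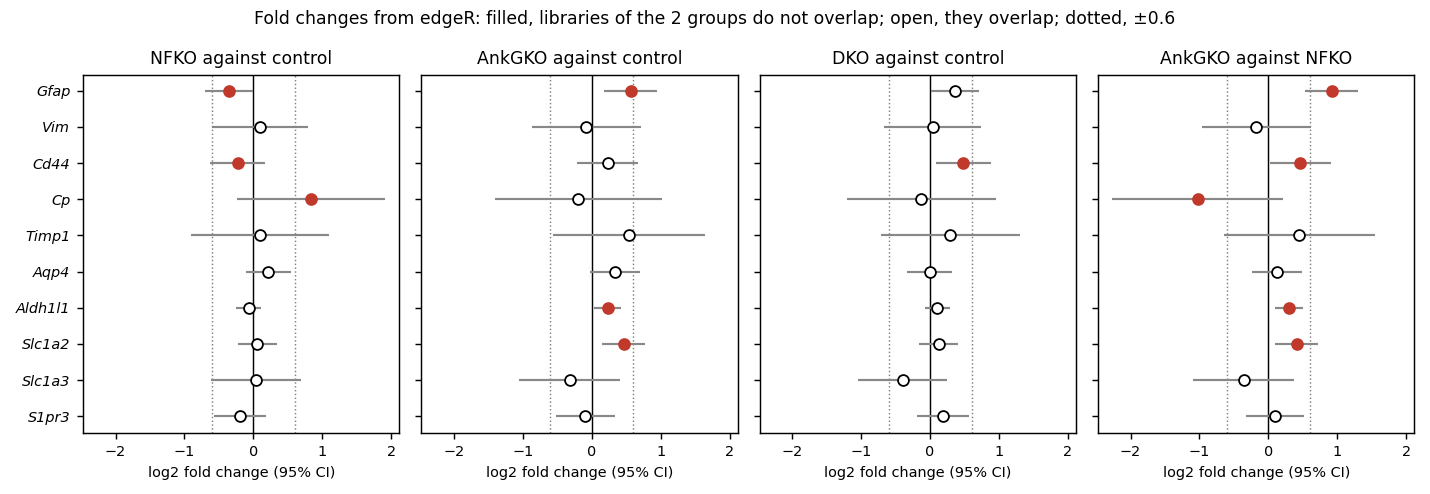
Log2 fold changes of the 10 genes with their 95% intervals from edgeR in NFKO, AnkGKO and DKO against control and in AnkGKO against NFKO, where filled points mark genes whose libraries do not overlap between the groups and dotted lines stand at ±0.6. Gfap lies at -0.35, 0.57, 0.36 and 0.92 in the 4 panels, and the intervals of Cp and Timp1 are the widest.

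Vim encodes vimentin, the filament protein that assembles with Gfap protein in reactive astrocytes and is also made by endothelial, meningeal and other cells, and it lies on chromosome 2 from 13578738 to 13587639 on the plus strand. It was at 94.1, 127 and 70.8 CPM in control, 96.0, 129 and 87.7 in NFKO, 116 and 68.4 in AnkGKO, and 93.4, 130 and 76.2 in DKO. The groups overlapped almost fully, and in control, NFKO and DKO replicate 2 was the highest and replicate 3 the lowest. The log2 fold changes against control were 0.096 in NFKO, -0.079 in AnkGKO and 0.035 in DKO (95% interval -0.67 to 0.74 in DKO). Vim therefore did not follow the order of the genotype means of Gfap. Among 6 other filament genes (Nes, Synm, Des, Prph, Plec and Krt18), none was called. Nes, which encodes nestin, had a log2 fold change of 0.41 in AnkGKO (edgeR adjusted p = 0.829) and Synm, which encodes synemin, 0.29 (edgeR adjusted p = 0.748), both without overlap. Synm had 0.16 in NFKO, and in DKO Prph had 0.75 and Plec 0.21, also without overlap. In DKO 6 of the 6 lay above 0, with a median log2 fold change of 0.22 against -0.00062 over all genes.

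Cd44, the hyaluronan receptor that rises on reactive astrocytes, lies on chromosome 2 from 102641486 to 102732010 on the minus strand. It was at 18.2, 18.5 and 19.9 CPM in control, 17.4, 16.9 and 14.0 in NFKO, 25.2 and 19.0 in AnkGKO, and 21.7, 35.1 and 22.2 in DKO. All NFKO libraries lay below and all DKO libraries above the controls, while AnkGKO overlapped control. Relative to control, Cd44 differed on the log2 scale by -0.23 in NFKO (SE 0.18, edgeR adjusted p = 0.907), 0.23 in AnkGKO (SE 0.20, edgeR adjusted p = 0.998) and 0.48 in DKO (SE 0.18, edgeR adjusted p = 0.619). The AnkGKO value of Cd44 was 0.014 without replicate 1 and 0.42 without replicate 2 of that genotype. DKO exceeded NFKO by 0.71 (SE 0.18, edgeR adjusted p = 0.118), and DESeq2 called this difference (adjusted p = 0.002). Without DKO replicate 2, the library with the highest Cd44, the difference was 0.45 (edgeR adjusted p = 0.102). Without that library the difference from control in DKO was 0.22, against 0.48 with it. Of 8 partners of Cd44 in hyaluronan turnover and binding, none was called in any comparison with control. Spp1, which encodes the Cd44 ligand osteopontin, was higher without overlap in NFKO (0.44, edgeR adjusted p = 0.448) and in DKO (0.47, edgeR adjusted p = 0.588). Msn, which encodes the linker moesin, was likewise without overlap in AnkGKO (0.30, edgeR adjusted p = 0.783) and DKO (0.35, edgeR adjusted p = 0.562). Hyal1 had 0.20 in NFKO without overlap.

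S1pr3 encodes a receptor of sphingosine-1-phosphate and lies on chromosome 13 from 51561702 to 51576833 on the plus strand. It was at 10.6, 12.0 and 10.4 CPM in control, 9.28, 10.7 and 8.99 in NFKO, 11.1 and 9.49 in AnkGKO, and 9.75, 16.7 and 11.3 in DKO. Only DKO replicate 2 stood outside the range of 8.99 to 12.0 CPM of the other 10 libraries. The log2 fold changes of S1pr3 against control were -0.19, -0.095 and 0.19 in NFKO, AnkGKO and DKO, none with an edgeR adjusted p below 0.784. Among 8 other genes of sphingosine-1-phosphate signalling none was called, and Sphk1, which makes the ligand, had 0.44 in NFKO (edgeR adjusted p = 0.394) with 3 of 3 libraries above control. Sgpl1, the lyase that breaks the ligand down, had 0.23 in DKO (edgeR adjusted p = 0.562), also without overlap. Smaller values without overlap were 0.13 for S1pr5 and -0.11 for Ppap2b in NFKO and 0.12 for Sgpl1 in AnkGKO.

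Cp and Timp1 encode secreted proteins, the ferroxidase ceruloplasmin and an inhibitor of matrix metalloproteinases. Cp (chromosome 3 from 20011090 to 20063930, plus strand) was at 15.4, 33.7 and 32.6 CPM in control, 36.8, 69.5 and 39.2 in NFKO, 31.6 and 15.9 in AnkGKO, and 37.2, 21.6 and 16.3 in DKO. All NFKO libraries lay above the controls, by a log2 fold change of 0.83 (SE 0.46, 95% interval -0.25 to 1.91, edgeR adjusted p = 0.799), and the other 2 genotypes overlapped control. NFKO replicate 2, the highest for Cp, also held the most RNA of 4 meningeal fibroblast genes (Col1a1, Col1a2, Dcn and Lum), at 936 CPM against 64.8 to 263 CPM in the other 10 libraries. With their sum as a covariate the Cp difference of NFKO was 0.26, and without the replicate 2 libraries of NFKO and DKO it was 0.47. Their part in the difference was not tested further. Exons of Cp overlap exons of Hps3 on the opposite strand, and whether strand was used in counting is not given in the sources used here. Of the 7 iron genes tested beside Cp, none was called, and Slc40a1, the iron exporter ferroportin that works with ceruloplasmin, had 0.36 in AnkGKO (edgeR adjusted p = 0.536) without overlap. Fth1, a ferritin chain, had 0.13 in NFKO and 0.21 in DKO, and Tfrc, the transferrin receptor, -0.18 in AnkGKO, also without overlap.

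Timp1 (chromosome X from 20736316 to 20740976, plus strand) was the least expressed member, at 0.546, 1.35 and 0.738 CPM in control, 0.784, 1.46 and 0.595 in NFKO, 1.77 and 0.804 in AnkGKO, and 0.863, 1.56 and 0.837 in DKO. In each genotype 1 library stood above the others, replicate 2 in control, NFKO and DKO and replicate 1 in AnkGKO, and all groups overlapped. The log2 fold changes of Timp1 were 0.098 in NFKO, 0.54 in AnkGKO and 0.29 in DKO, with SEs of 0.46 to 0.50. With each library left out in turn they ranged from -0.14 to 1.00 in AnkGKO and from -0.062 to 0.75 in DKO. In NFKO the Timp1 difference turned to -0.71 with the meningeal genes as a covariate, and to -0.37 without the replicate 2 libraries of NFKO and DKO. Of 8 metalloproteinases, inhibitors and partners of Timp1 none was called. Timp3 had 0.29 in AnkGKO (edgeR adjusted p = 0.839), while Mmp14 and Mmp2 had -0.54 and -0.42 there, each without overlap. Mmp9 had 0.37 in NFKO.

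**Figure D3:**
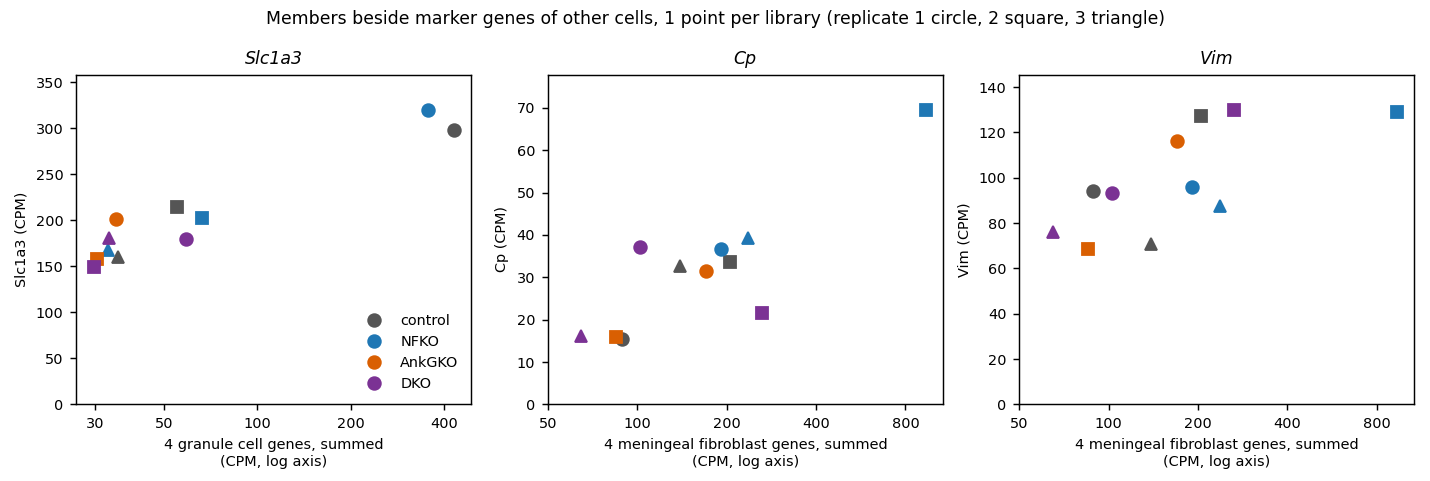
Levels of Slc1a3, Cp and Vim (CPM) in each of the 11 libraries against the summed CPM of 4 granule cell genes or 4 meningeal fibroblast genes (log axes), coloured by genotype. Slc1a3 was at 298 and 320.1 CPM in the 2 libraries with most granule cell RNA, and Cp at 69.5 CPM in the library with most meningeal RNA.

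Slc1a2 and Slc1a3 encode the glial glutamate transporters GLT-1 and GLAST. Slc1a2 (chromosome 2 from 102488574 to 102621129, plus strand) was at 2371, 2365 and 2734 CPM in control, 2830.4, 2500.0 and 2420.3 in NFKO, 2891 and 3962 in AnkGKO, and 2894, 2301 and 2969 in DKO. Both AnkGKO libraries lay above every control library, and the other genotypes overlapped control. The log2 fold change in AnkGKO was 0.46 (SE 0.14, 95% interval 0.15 to 0.77, edgeR adjusted p = 0.528), and without AnkGKO replicate 2 it was 0.22. With Xist as a covariate the AnkGKO value of Slc1a2 was 0.31. NFKO and DKO differed from control by 0.053 (95% interval -0.23 to 0.34) and 0.13 (95% interval -0.15 to 0.41).

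Slc1a3 (chromosome 15 from 8663604 to 8741595, minus strand) was at 298, 214 and 160.5 CPM in control, 320.1, 203 and 168 in NFKO, 201 and 158 in AnkGKO, and 179.7, 149 and 181 in DKO. Replicate 1 was the highest and replicate 3 the lowest in both control and NFKO, and no genotype separated from control. Those replicate 1 libraries are the pair with high granule and Purkinje cell markers. The log2 fold changes of Slc1a3 were 0.037 in NFKO, -0.32 in AnkGKO and -0.40 in DKO, with SEs of 0.28 to 0.32. Without the replicate 1 libraries of control and NFKO, or with the granule cell genes as a covariate, the AnkGKO value of Slc1a3 was -0.061 or 0.096 and the DKO value -0.14 or -0.041. The 3 genes most like Slc1a3 over the 11 libraries, by Pearson's r of log2 CPM among 13910 genes of at least 1 CPM, were Cbln1 (r = 0.970), Rgs8 (r = 0.968) and Cadps2 (r = 0.967). Without the 2 libraries farthest from the median of Slc1a3 these were 0.917, 0.883 and 0.912. The 5 Bergmann glia genes (Gdf10, Hopx, Fabp7, Timp4 and A2m) summed to 266 to 331 CPM, and their groups overlapped. Among them Gdf10 had -1.62 in DKO without overlap (edgeR adjusted p = 0.639), at 30.6, 8.76 and 8.16 CPM in control and 3.89 to 6.42 CPM in DKO, so that control replicate 1 weighs heavily in it. Hopx had 0.12 in DKO and 0.13 in AnkGKO, and Timp4 -0.16 in AnkGKO, also without overlap. Of 6 other transporters of glutamate, neutral amino acids and glutamine none was called, and Slc38a5 had 0.73 in NFKO (edgeR adjusted p = 0.424) with 3 of 3 libraries above control. Slc1a1 had 0.096 in NFKO and Slc1a6, a Purkinje cell transporter, -0.61 in DKO (edgeR adjusted p = 0.728), also without overlap. Slc1a6 was at 37.4, 17.8 and 15.90 CPM in control and 15.3 to 15.89 CPM in DKO. Control replicate 1 thus weighs heavily in its value too, and the groups nearly touched.

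Aqp4 encodes the water channel of astrocyte end feet. It was at 746, 649 and 609.6 CPM in control, 915, 727 and 689 in NFKO, 959 and 729 in AnkGKO, and 559, 710.1 and 729 in DKO. The groups overlapped control in each genotype, and both AnkGKO libraries lay above the 3 DKO libraries, although the nearest of them both rounded to 729 CPM. The log2 fold changes of Aqp4 were 0.22 in NFKO (SE 0.15), 0.34 in AnkGKO (SE 0.16) and -0.0047 in DKO (SE 0.15), with edgeR adjusted p from 0.866 to 0.996. The AnkGKO value was 0.13 without replicate 1 and 0.52 without replicate 2 of that genotype, and with Xist as a covariate the values of Aqp4 were 0.39 in NFKO and 0.52 in AnkGKO. Its interaction of the knockouts was -0.56 (95% interval -1.04 to -0.076, edgeR adjusted p = 0.412), the smallest p of any member in that test. In the NFKO pairs Aqp4, Cp and Vim were higher in 3 of 3, while Gfap, Cd44 and S1pr3 were lower in 3 of 3. Of 7 partner genes (other aquaporins, the channel gene Trpv4 and the dystrophin complex that anchors Aqp4 protein) none was called, and Dtna, which encodes dystrobrevin alpha, was lower without overlap in NFKO (-0.18, edgeR adjusted p = 0.505) and DKO (-0.17, edgeR adjusted p = 0.619). In AnkGKO Aqp1 had -1.27, also without overlap. The ratio of Gfap to Aqp4, chosen after their values had been seen, was 1.68 to 2.06 in NFKO, 2.58 to 3.31 in control, 3.18 and 3.47 in AnkGKO and 2.72 to 4.29 in DKO. The NFKO libraries thus had the lowest 3 ratios of the 11.

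Aldh1l1, a folate enzyme used as a marker of all astrocytes, lies on chromosome 6 from 90463409 to 90577185 on the plus strand and was at 83.2, 93.3 and 87.8 CPM in control, 76.6, 80.7 and 94.9 in NFKO, 101 and 105 in AnkGKO, and 94.0, 90.2 and 100.0 in DKO. Both AnkGKO libraries exceeded all 9 others, with a log2 fold change against control of 0.23 (SE 0.091, 95% interval 0.032 to 0.43, edgeR adjusted p = 0.796). NFKO and DKO overlapped control, at -0.068 and 0.10. Of the 10 genes Aldh1l1 varied least, by 1.38-fold between its lowest and highest library. Within genotypes its SD was 0.11 on the log2 scale, a percentile of 62.8 among the 500 genes nearest in level, itself included. For the other 9 members that percentile was 80.6 to 99.8, so they varied more between libraries of a genotype than most genes of their level. A non-coding gene, Gm45901, overlaps exons of Aldh1l1 on the same strand, and reads of the overlap cannot be told apart. None of 8 other folate genes was called in any comparison with control, and Mthfd1l had -0.20 in NFKO without overlap.

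**Figure D4:**
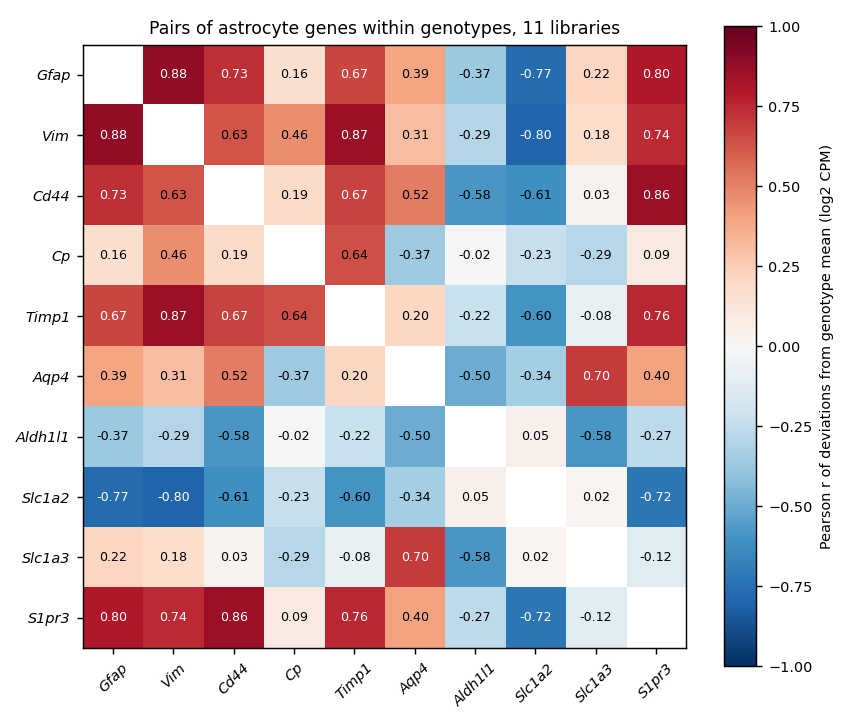
Pearson correlation of each pair of the 10 genes across the 11 libraries after the genotype mean of log2 CPM was removed, from blue at -1 through white at 0 to red at 1. Gfap, Vim, Cd44, Timp1 and S1pr3 were positively related (0.63 to 0.88), and Slc1a2 was negatively related to each of these (-0.60 to -0.80).

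How the members varied inside a genotype was described by removing the genotype means. Gfap and Vim then deviated together (r = 0.88), as did Vim and Timp1 (r = 0.87), Cd44 and S1pr3 (r = 0.86) and Gfap and S1pr3 (r = 0.80). Slc1a2 ran the other way, with r = -0.80 to Vim and r = -0.77 to Gfap. The points are the same 11 libraries for every pair, and no p is given. Over all libraries without this step Gfap and Vim were only weakly related (r = 0.25), and Gfap and Cd44 more closely (r = 0.82). The meningeal sum moved with the deviations of Timp1 (r = 0.89), Vim (r = 0.78) and S1pr3 (r = 0.75) inside genotypes, less with those of Cd44 (r = 0.64) and Gfap (r = 0.60). The choroid plexus sum (Ttr, Kl and Aqp1) moved more closely with those of S1pr3 (r = 0.90), Cd44 (r = 0.87) and Gfap (r = 0.75), and the blood myeloid sum (Ccr2, Plac8, Ly6c2 and S100a9) with those of S1pr3 (r = 0.91) and Gfap (r = 0.73). Both sums were highest in DKO replicate 2. With genotype means kept, r to the choroid plexus sum was 0.69, 0.39 and 0.068 for S1pr3, Cd44 and Gfap. Without the 2 libraries farthest from the median of that sum it was 0.10, -0.33 and -0.41. For the blood myeloid sum the values of S1pr3 and Gfap were 0.58 and 0.018, and -0.18 and -0.49 without such libraries. The ependyma sum (Foxj1, Ccdc153 and Tmem212) ran against those of Vim (r = -0.88) and Gfap (r = -0.73). The part of these cells in the deviations was not tested. DKO replicate 2 had the highest Gfap, Vim, Cd44, Timp1 and S1pr3 of its genotype, and the most meningeal RNA of its genotype at 263 CPM. Over the 11 libraries the gene most like Gfap was Atp5s (r = 0.916), the gene most like Vim was Amigo2 (r = 0.968) and that most like Cd44 was Fam102b (r = 0.905). The nearest to Cp was Gpr81 (r = 0.961), to Timp1 Kdelc2 (r = 0.940), to S1pr3 Med31 (r = 0.963), to Aqp4 Krt10 (r = 0.903), to Aldh1l1 B230206H07Rik (r = 0.941) and to Slc1a2 Xpr1 (r = 0.940).

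Wider lists of astrocyte genes were counted to set the members in context. Of the 10 members 6 belong to the 13 genes of a pan-reactive list and the other 4 to a list of 20 homeostatic genes, so the lists are not independent of them. Of the pan-reactive genes edgeR called 1, Serpina3n, a secreted protease inhibitor, which was higher in NFKO (log2 fold change 1.71, SE 0.13, edgeR adjusted p = 0.000137) and in AnkGKO (1.64, SE 0.14, edgeR adjusted p = 0.000973). Serpina3n was at 70.4 to 75.7 CPM in control, 217 to 264 in NFKO, 184 and 270.4 in AnkGKO and 84.2 to 103 in DKO. All mutant libraries lay above control, with DKO between the controls and the single knockouts (0.34 against control, edgeR adjusted p = 0.619). Serpina3n was lower in DKO than in NFKO (-1.38, edgeR adjusted p = 0.000566) and in AnkGKO (-1.30, edgeR adjusted p = 0.00512). In the NFKO libraries, where Serpina3n was about as high as in AnkGKO, Gfap stood below control. Lcn2, the acute-phase lipocalin, was at 0.962 to 1.33 CPM in control and above that in every mutant library, from 1.43 to 9.85 CPM, with edgeR adjusted p of 0.629 to 0.957. Hspb1, a small heat shock protein, had 0.59 in DKO without overlap (edgeR adjusted p = 0.570). The median log2 fold change of the pan-reactive genes was 0.20, 0.26 and 0.32 in NFKO, AnkGKO and DKO, beside the medians near 0 of all genes. In NFKO this median was -0.093 without the replicate 2 libraries of NFKO and DKO, which held the most meningeal RNA of their groups, and -0.26 with the meningeal genes as a covariate. It was 0.41 with Xist as a covariate and 0.56 without control replicate 2. In AnkGKO it was -0.025 without AnkGKO replicate 1.

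Of the 20 homeostatic genes none was called. In AnkGKO 18 of 20 lay above 0, with a median log2 fold change of 0.17. In that genotype 10 did not overlap control, all higher, and 6 had an unadjusted p under 0.05. Over all genes the shares in this comparison were 24% without overlap and 5.39% at an unadjusted p under 0.05. Sox9, a transcription factor of astrocytes, came closest to the threshold (0.45, SE 0.081, edgeR adjusted p = 0.0535), and Slc1a2 had the largest value (0.46). Without AnkGKO replicate 2 the median of the list was 0.080. The medians in NFKO and DKO were 0.037 and 0.10, with 2 and 4 genes at an unadjusted p under 0.05, against 7.69% and 7.77% of all genes. In NFKO Sox9 had 0.22 (edgeR adjusted p = 0.441), without overlap. In DKO Glul, which makes glutamine from glutamate, had 0.28 (edgeR adjusted p = 0.637) and Ndrg2 0.22 (edgeR adjusted p = 0.609), both without overlap. Lower without overlap were Slc6a11, a GABA transporter, in NFKO (-0.16, edgeR adjusted p = 0.673) and Acsbg1, an acyl-CoA synthetase, in DKO (-0.16, edgeR adjusted p = 0.645).

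Among genes that other injuries raise in astrocytes edgeR called none against control. Of 11 tested genes of a list linked to neuroinflammation 4 had an unadjusted p under 0.05 in NFKO, against 7.69% of all genes. The median of the list was 0.39, and these 4 were all higher. Among them Srgn (0.54, edgeR adjusted p = 0.203) and Gbp2 (0.84, edgeR adjusted p = 0.503) did not overlap control. H2-D1 had -0.093 in AnkGKO without overlap. In AnkGKO and DKO the medians of this list were 0.066 and 0.011, and the AnkGKO median was -0.16 without AnkGKO replicate 1. With the meningeal genes as a covariate the NFKO median was 0.042. Of 12 genes linked to ischemia none was called by edgeR. At an unadjusted p under 0.05, 3 of them were higher in NFKO, 2 in AnkGKO and 4 in DKO. The shares over all genes were 7.69%, 5.39% and 7.77%. Cd14, a receptor of innate immunity, was higher without overlap in NFKO (0.56, edgeR adjusted p = 0.273) and AnkGKO (0.62, edgeR adjusted p = 0.380), where DESeq2 called it (adjusted p = 0.0423). Ptgs2, an inducible prostaglandin synthase, had larger values without overlap, 1.11 in NFKO (edgeR adjusted p = 0.511) and 1.05 in AnkGKO (edgeR adjusted p = 0.893), at levels of 0.364 to 1.19 CPM in control. S100a10 had -0.29 in NFKO, -0.24 in AnkGKO and 0.46 in DKO (edgeR adjusted p = 0.629), each without overlap. It was at 29.1 to 32.1 CPM in control and 35.3, 58.6 and 33.5 CPM in DKO, so that DKO replicate 2 weighs heavily in the DKO value. The 5 microglia genes summed to 196 to 240.1 CPM in control, 230.4 to 243 in NFKO, 259 and 261 in AnkGKO and 218 to 289 in DKO. Markers of blood myeloid cells and of choroid plexus were low, at 2.08 to 34.7 and 4.24 to 29.3 CPM, and both sums were highest in DKO replicate 2. Endothelial genes summed to 151 to 233 CPM and oligodendrocyte genes to 23967 to 29264 CPM, and for both sums every genotype overlapped control.

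**Figure D5:**
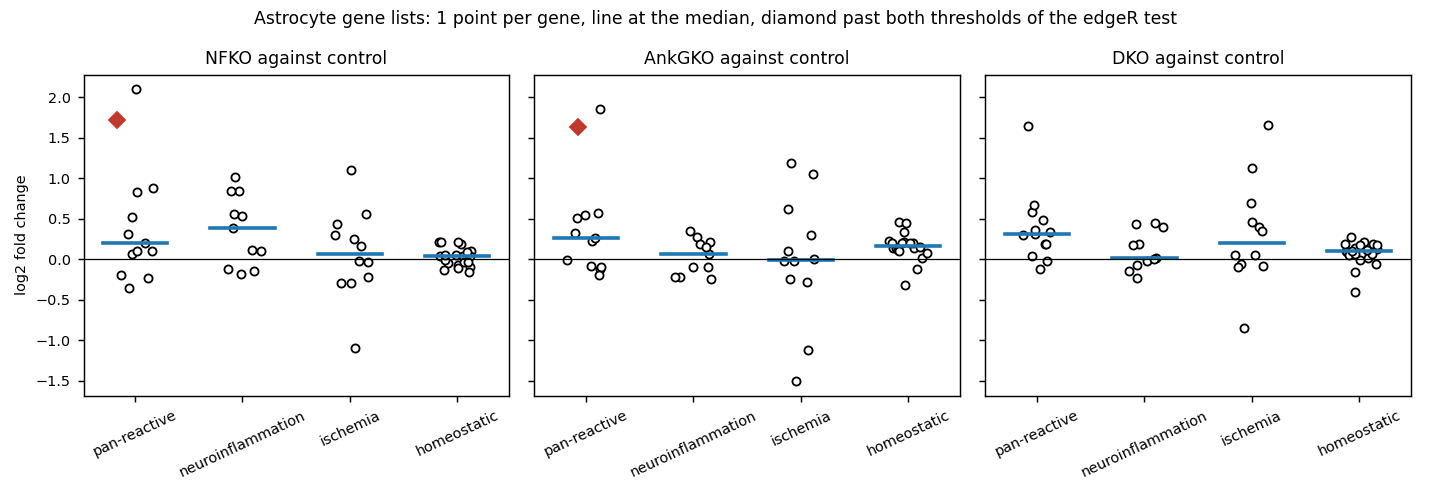
Log2 fold changes against control of the genes in 4 astrocyte lists, 1 point per gene, for NFKO, AnkGKO and DKO, with lines at the list medians and diamonds for genes past both thresholds of the edgeR test. The only diamonds are Serpina3n at 1.71 in NFKO and 1.64 in AnkGKO, and the homeostatic genes of AnkGKO lie mostly above 0 with a median of 0.17.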

How the data were processed

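Polyadenylated RNA of 11 libraries was prepared with a strand-specific kit. Per the labels and the study's methods the authors checked reads with FastQC 0.12.1, trimmed them with Trimmomatic 0.39 and aligned them to GRCm39 with STAR 2.7.11a, and used R 4.3.2 and DESeq2 1.40.2. The strand setting of the counting is not given in the sources used here. The deposited count table holds raw counts per gene (22609 genes and 5 summary lines of unassigned reads, left out of library sizes and tests). Reads mapped to several places made up 32.5 to 34.3% of all reads in the table, summary lines included. The deposited normalized signal of the authors equals these counts divided by DESeq2 size factors (0.815 to 1.16) and was not tested again.

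Counts were analysed here with R 4.3.3, edgeR 4.0.16 and limma 3.58.1 in 1 quasi-likelihood fit over the 4 genotypes, with TMM scaling, at least 10 counts over all libraries (17557 genes) with p-values adjusted over the whole table by Benjamini-Hochberg. A gene was called at an adjusted p under 0.05 with a log2 fold change of 0.6 or more in either direction. DESeq2 1.42.0 was the second tool. Log2 CPM for correlations used a prior count of 1. Both tools were tested on simulated data first. Same-numbered libraries of control and NFKO were taken as pairs, because their deviations from the genotype means correlated (r = 0.56, 0.47 and 0.26 for replicates 1, 2 and 3). Those of NFKO and DKO were also positive (r = 0.049, 0.46 and 0.28), so this was not particular to control and NFKO. Every other pair of groups had a negative value. Alternatives were other scaling, filters, thresholds and sets of libraries, a replicate block, Xist as a covariate and leaving out each library. The comparison of AnkGKO with NFKO, both marker covariates, the leaving out of the replicate 2 libraries and the block over control and NFKO alone were added after seeing the data. The members and lists were chosen with earlier results of these data known. Marker lists of other cells are given as sums. From each other list the text names the genes called, and otherwise at most 2 higher and 2 lower genes per comparison with the largest change among those of at least 1 CPM whose libraries did not overlap control. Some such genes are not reported here. Figures and annotation used Python 3.11.15, pandas 2.3.3, numpy 2.4.6 and matplotlib 3.10.9.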

Additional observations from a re-analysis of the deposited data

Results flagged for a closer look

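Gfap stood out because both AnkGKO libraries lay above every control library while all 3 NFKO libraries lay below every one. The effect against control was 0.57 in AnkGKO and -0.35 in NFKO on the log2 scale, a difference of 0.92 (SE 0.17). In the direct comparison of these genotypes edgeR gave an unadjusted p of 0.000301 and an adjusted p of 0.0563. The fit covered all 11 libraries, so the control libraries enter the spread behind this p. The comparison was chosen after the values had been seen. Cd44 stood out in the same way between DKO, with 3 of 3 libraries above the controls, and NFKO, with 3 of 3 below. The difference was 0.71 (SE 0.18, edgeR unadjusted p = 0.00255, adjusted p = 0.118). Neither difference passed the threshold in edgeR, and DESeq2 called both.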

How the results depend on the processing

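Of 161 recomputed counts of members called, 149 were the same and 12 moved. In DKO against NFKO the count of 0 became 2 with DESeq2, 2 with the meningeal genes as a covariate and 1 with the replicate block (Gfap, log2 fold change 0.70, edgeR adjusted p = 0.0406), and lay between 0 and 1 with each library left out. In AnkGKO against NFKO it became 1 with DESeq2, with only the libraries compared, with Xist or the meningeal genes as a covariate and without the replicate 2 libraries of NFKO and DKO, and lay between 0 and 1 with each library left out, the 1 arising without control replicate 3, DKO replicate 2 or DKO replicate 3. The replicate block changed no other count of members. Of 758 recomputed member fold changes 703 were the same, 14 newly passed the threshold and 41 changed sign, all in comparisons with control and among Aqp4, Cp, S1pr3, Slc1a2, Slc1a3, Timp1 and Vim, whose values lay near 0 or whose spread was wide. The cause of these changes was not tested.

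With the replicate block Aqp4 in DKO was 0.0094. With the granule cell genes as a covariate Aqp4 in DKO was 0.11 and Slc1a3 in AnkGKO 0.096. With the meningeal genes as a covariate Cp in DKO was 0.017, Timp1 in NFKO -0.71 and Vim in NFKO -0.34. With Xist as a covariate S1pr3 in AnkGKO was 0.10, Slc1a2 in NFKO -0.096, Vim in AnkGKO 0.34 and Vim in DKO -0.025. Without the replicate 1 libraries of control and NFKO, Aqp4 in DKO was 0.082, and in NFKO Slc1a2 was -0.052, Slc1a3 -0.016 and Timp1 -0.027. Without the replicate 2 libraries of NFKO and DKO, the DKO values were -0.069 for S1pr3, -0.066 for Timp1 and -0.21 for Vim, and the NFKO values -0.37 for Timp1 and -0.093 for Vim.

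With each library left out in turn, Aqp4 in DKO ranged from -0.075 to 0.11, Cp in AnkGKO from -0.77 to 0.21 and Cp in DKO from -0.53 to 0.11. S1pr3 ranged from -0.21 to 0.015 in AnkGKO and from -0.067 to 0.34 in DKO, Slc1a2 in NFKO from -0.017 to 0.13 and Slc1a3 in NFKO from -0.28 to 0.30. Timp1 ranged from -0.36 to 0.56 in NFKO, -0.14 to 1.00 in AnkGKO and -0.062 to 0.75 in DKO, and Vim from -0.088 to 0.34 in NFKO, -0.51 to 0.25 in AnkGKO and -0.20 to 0.27 in DKO. A lone AnkGKO library was then assumed to vary like the other groups.

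Over all genes DESeq2 called 159, 102 and 44 genes in NFKO, AnkGKO and DKO against control, where edgeR called 64, 29 and 4. In DKO against NFKO the counts were 418 and 108, in DKO against AnkGKO 99 and 30, in AnkGKO against NFKO 199 and 71, and in the interaction 314 and 93. With Xist as a covariate edgeR called 31, 15 and 5 against control, 42 in DKO against NFKO, 14 in DKO against AnkGKO and 19 in the interaction. The block over control and NFKO libraries alone called 248 genes in NFKO. With 2 AnkGKO libraries, its values rest on a single difference between replicates.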

Other observations

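The summed level of the 10 members was 7392 and 7600 CPM in AnkGKO, against 4920 to 6504 CPM in the other 9 libraries, and Gfap and Slc1a2 make up most of it. Slc1a2 and Gfap each lay above every control library in AnkGKO, although inside genotypes they deviated in opposite directions (r = -0.77): AnkGKO replicate 1 had the more Gfap (3054 against 2532 CPM) and AnkGKO replicate 2 the more Slc1a2 (3962 against 2891 CPM). Among the 5 microglia genes, which are outside the astrocyte lists, Cx3cr1, Csf1r and P2ry12 lay above every control library in AnkGKO. Tmem119 and Aif1 overlapped control, and 24% of all genes did not overlap in this comparison. Csf1r and P2ry12 had log2 fold changes of 0.32 and 0.31 (edgeR adjusted p = 0.598 and 0.844).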
